A study of Mus musculus with 8 samples.

Results

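The STAT transcription factors examined here are Stat2, Stat3, Stat4, Stat5a, Stat5b and Stat6, found on the array as the probe sets that carry these symbols in the platform annotation. Each gene had 1 probe set, so 6 of the 22206 probe sets tested were members, and all 6 gene IDs matched RefSeq. The 4 TMRM/MG-high arrays and the 4 TMRM/MG-low arrays hold total RNA of splenic cDC1 from naive wild-type C57BL/6 mice. cDC1 are the conventional dendritic cells that specialise in presenting antigen to CD8 T cells. No engineered allele and no treatment is labelled, and the labels tell the 2 groups apart by sort gate only: TMRM is a dye that mitochondria take up with their membrane potential, and MG is not spelled out in the labels. The ages of the mice, and whether each replicate was its own animal, pool or sort, are not labelled. The p-values therefore rest on array-to-array spread that may be technical.

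STAT proteins wait in the cytoplasm until a cytokine receptor is engaged. JAK kinases bound to the receptor then phosphorylate the receptor and the STAT on tyrosine, the STATs pair through their SH2 domains, and the pair enters the nucleus and binds DNA. STAT2 acts downstream of type I and type III interferons, as part of a complex with the DNA-binding protein IRF9 that recognises the interferon-stimulated response element. STAT3 serves IL-6, IL-10 and, in dendritic cell development, FLT3 signalling, STAT4 serves IL-12, the closely related STAT5A and STAT5B serve GM-CSF, IL-2 and IL-7, and STAT6 serves IL-4 and IL-13. Most of this control is by phosphorylation, which an mRNA array does not measure.

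Sequences upstream of the STAT genes were read from RefSeq promoter windows of build GRCm38.p6, which run from 250 bases before to 50 bases after a transcript start. All 6 genes had at least 1 window, 9 in all. They were searched on both strands for the interferon-stimulated response element core (GAAA, any 2 bases, GAAA) and for the STAT dimer site core TTCNNNGAA, called GAS. The response element core was present in 2 of the 9 windows, against 3.44% of the 32851 windows of all genes, and GAS in 0 of the 9, against 8.30% of all. With no GAS match there was no overlap between the motifs. The 250 bases before the start are shown for these 2 windows, because Stat2 is the member whose mRNA differed and its window holds the letters of the element that its own protein complex recognises. In capitals is the match, on the reverse strand and beginning at position -222 from the start in Stat2 (chr10:128270248-128270497, plus strand), and on the forward strand and beginning at position -97 from the start in a Stat4 window (chr1:52007990-52008239, plus strand).
Stat2: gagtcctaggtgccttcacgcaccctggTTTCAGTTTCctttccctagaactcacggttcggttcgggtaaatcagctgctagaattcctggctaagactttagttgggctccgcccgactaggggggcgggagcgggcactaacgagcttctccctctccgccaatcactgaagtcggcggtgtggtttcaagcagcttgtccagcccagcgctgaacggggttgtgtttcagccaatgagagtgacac
Stat4: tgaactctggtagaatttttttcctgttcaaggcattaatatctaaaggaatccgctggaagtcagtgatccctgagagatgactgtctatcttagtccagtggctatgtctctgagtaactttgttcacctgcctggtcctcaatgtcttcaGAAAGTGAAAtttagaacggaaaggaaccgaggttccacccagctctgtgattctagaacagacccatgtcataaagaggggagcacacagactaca
A match is a description of letters and was not tested as a binding site.

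Stat5b, Stat5a and Stat3 lie next to each other, in that order, among the protein-coding genes of chromosome 11, and Stat2 and Stat6 are both on chromosome 10. Ungapped stretches of a Stat5a and a Stat5b promoter window were scored 1 for a match and -2 for a mismatch. The stretch with the highest score was 65 bases with 58 identical (89.2%). It is shown because Stat5a and Stat5b are paralogues. Capitals mark identical bases. The Stat5a stretch is chr11:100860418-100860482 on the plus strand and the Stat5b stretch chr11:100822563-100822627 on the minus strand.
Stat5a: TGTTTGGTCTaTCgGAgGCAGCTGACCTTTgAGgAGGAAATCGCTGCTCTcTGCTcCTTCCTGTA
Stat5b: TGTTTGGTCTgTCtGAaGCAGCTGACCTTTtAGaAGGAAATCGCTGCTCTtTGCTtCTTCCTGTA
How far the probe sets of these paralogues share signal was not tested.

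The values are the deposited log2 signals, made comparable across arrays by RMA, so every difference is relative to the other probe sets. Levels of different probe sets are not compared with each other, since probes differ in brightness. All 6 members lay above the median of the negative control probe sets on all 8 arrays. That median was 6.77 to 6.93 on the high and 6.72 to 6.81 on the low arrays. All 12 cDC1 markers (Xcr1, Clec9a, Batf3 and others) were above it on every array, and 0 of the 12 were called. Their mean level was 11.96 to 12.13 in TMRM/MG-high and 11.89 to 12.13 in TMRM/MG-low cells. In 4 of the 12 the groups did not overlap, where 16.1% of all probe sets had no overlap. The 12 differences, high minus low, ran from -0.21 to 0.31. The 8 spike-in control probe sets separated the fractions: their mean level was 8.88 to 9.43 on the high and 9.79 to 10.23 on the low arrays. Fractions were compared with limma over all 22206 probe sets, with Benjamini-Hochberg adjustment and a threshold of 0.05 on the adjusted p, and a gene is said to rise, fall or be called only where it passed.

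Of the 6 STAT genes, Stat2 fell in TMRM/MG-high cDC1 and the other 5 were not called. Across the whole table limma called 8.25% of probe sets, 5.28% as higher and 2.96% as lower. One call among 6 is too few genes to set against that share, and the result is about Stat2 itself. Markers of some other cell types differed between the same arrays. Of 10 plasmacytoid dendritic cell markers 8 rose (median 0.67), with a mean level of 10.08 to 10.45 in TMRM/MG-high and 9.42 to 9.62 in TMRM/MG-low arrays. Of 15 T and NK cell markers 4 fell (median -0.52), with a mean level of 8.55 to 9.12 in high and 8.82 to 9.63 in low arrays, and of 8 neutrophil markers 1 fell (median -0.745), at 8.62 to 9.53 in high and 9.55 to 10.11 in low arrays. Of 9 markers of cDC2, the second conventional dendritic cell type, 1 fell (median 0.03). Of 8 B cell and 10 macrophage markers 0 were called (medians -0.055 and 0.19). The part of these cell types in the Stat2 result was not tested.

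Stat2 had log2 levels of 10.33, 10.37, 10.28 and 10.43 in TMRM/MG-high replicates 1 to 4, against 10.78, 10.98, 10.95 and 10.85 in TMRM/MG-low replicates 1 to 4. Every high array lay below every low array, which holds for 6.37% of all probe sets tested. Stat2 was the 1 member of 6 without overlap, and 16.1% of all probe sets had none in either direction. The log2 difference was -0.54 (SE 0.082, 95% interval -0.71 to -0.36, limma adjusted p = 0.00581), so the signal in high cells was 0.689 times that in low cells (95% interval 0.609 to 0.779). Only 0.45% of probe sets had a smaller p. The call was kept on leaving out any 1 of the 8 arrays (-0.58 to -0.51, highest adjusted p = 0.0266). When spike-in level was added to the fit, the difference was -0.56, but its 95% interval widened to -1.01 to -0.10 and its limma adjusted p was 1. That fit called 0 of all probe sets, with 472 higher and 568 lower at an unadjusted p under 0.05.

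Stat3, the STAT of the IL-6 and IL-10 receptors, was not called and was very even among arrays. Its log2 levels were 11.82, 11.77, 11.82 and 11.83 in TMRM/MG-high and 11.77, 11.86, 11.78 and 11.78 in TMRM/MG-low replicates 1 to 4. The groups overlapped, and the log2 difference was 0.01 (SE 0.073, 95% interval -0.15 to 0.17, limma adjusted p = 0.944). In this fit the interval runs from 1.11-fold down to 1.13-fold up. After a second quantile normalization the 95% interval of the log2 difference was -0.22 to 0.08. The direction has no meaning here, since it turned with the scaling (-0.07 after a second quantile normalization).

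Stat6, which transmits IL-4 and IL-13 signals, was not called either and was similarly even. It stood at 11.72, 11.75, 11.67 and 11.75 in TMRM/MG-high and at 11.74, 11.60, 11.71 and 11.66 in TMRM/MG-low replicates 1 to 4. The ranges overlapped, with low replicates 1 and 3 inside the high range. The log2 difference was 0.05 (SE 0.076, 95% interval -0.12 to 0.21, limma adjusted p = 0.764), and it was -0.04 after a second quantile normalization.

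The paralogues Stat5a and Stat5b, which carry GM-CSF signals in dendritic cells, had lower means in TMRM/MG-high cells but were not called. Stat5a levels were 9.84, 9.77, 9.75 and 9.70 in high replicates 1 to 4, against 9.88, 10.11, 9.75 and 9.95 in low replicates 1 to 4. Low replicate 3 lay inside the high range and the other low arrays above it. The Stat5a difference was -0.15 (SE 0.091, 95% interval -0.35 to 0.04, limma adjusted p = 0.319). It was -0.09 without low replicate 2 and turned direction with the spike-in covariate (0.14). Stat5b levels were 9.81, 9.94, 9.90 and 9.94 in the high and 10.02, 9.97, 9.93 and 10.12 in the low arrays, where again only low replicate 3 reached into the high range. The Stat5b difference was -0.11 (SE 0.080, 95% interval -0.29 to 0.06, limma adjusted p = 0.411), and it was -0.25 with the spike-in covariate.

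Stat4, the STAT of the IL-12 receptor and a gene strongly used by T and NK cells, varied most among arrays. It measured 7.49, 7.75, 7.58 and 8.07 in TMRM/MG-high and 8.09, 8.17, 7.47 and 7.89 in TMRM/MG-low replicates 1 to 4. These levels were only 0.66 to 1.37 log2 units above the negative control median of their arrays. The lowest array of all was low replicate 3 and the groups overlapped. The log2 difference was -0.18 (SE 0.16, 95% interval -0.53 to 0.17, limma adjusted p = 0.529). Its size rested on single arrays: it was -0.33 without low replicate 3 and -0.30 without high replicate 4, but -0.09 without low replicate 2, -0.10 without high replicate 1 and -0.12 without low replicate 1. None of these was called (limma adjusted p = 0.158 to 0.804 over the 8 omissions). With the spike-in covariate the Stat4 difference was 0.06, with a 95% interval (-0.86 to 0.97) too wide to give a direction. Of 15 T and NK cell markers measured, 4 fell and 0 rose (median -0.52), among them Cd3e, a chain of the T cell receptor complex, at -0.86. All 15 were above the negative control median on every array. Their mean level was 8.70, 8.90, 8.55 and 9.12 in high replicates 1 to 4 and 9.44, 9.63, 8.82 and 9.58 in low replicates 1 to 4, so low replicate 3 was the lowest of its group in these markers as in Stat4. This array was also the lowest of its group in Stat5a and Stat5b, but not in Stat2, Stat3 or Stat6. Fewer such cells in a sort and less RNA per cell cannot be told apart in bulk samples, and the part of these cells in the Stat4 values was not tested.

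**Figure D1:**
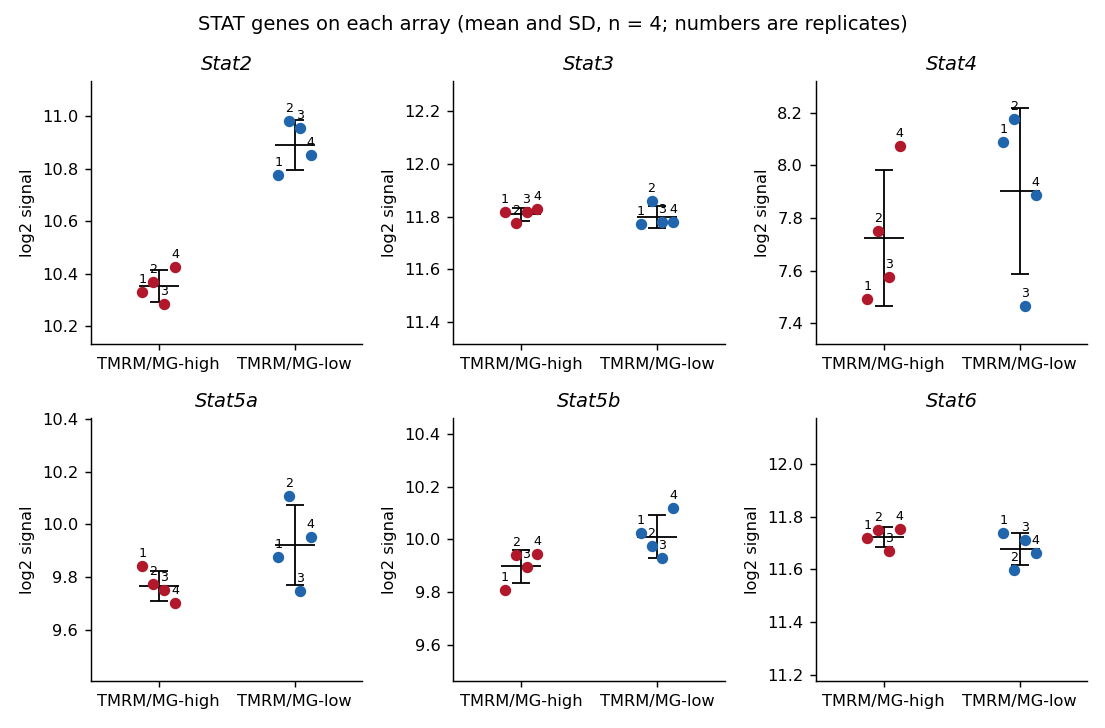
Log2 signal of the 6 STAT genes on each array, TMRM/MG-high in red and TMRM/MG-low in blue, with replicate numbers, the mean and the SD (n = 4 each). Every panel spans 1 log2 unit. The Stat2 groups are apart, from 10.28 to 10.43 in the high and from 10.78 to 10.98 in the low arrays, while the groups of the other 5 genes overlap.

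Within a fraction the members differed widely in how much they varied. The SD within fractions was 0.034 for Stat3 and 0.051 for Stat6, below that of all but 0.383% and 1.96% of probe sets. It was 0.073 for Stat5b, 0.079 for Stat2 and 0.11 for Stat5a, all under the median of 0.147 over all probe sets. Stat4 was the exception, at 0.29, above 95.6% of probe sets, with a signal only 0.66 to 1.37 log2 units above the negative control median. The Stat4 difference was smaller than its SD and the Stat2 difference larger than its own.

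**Figure D2:**
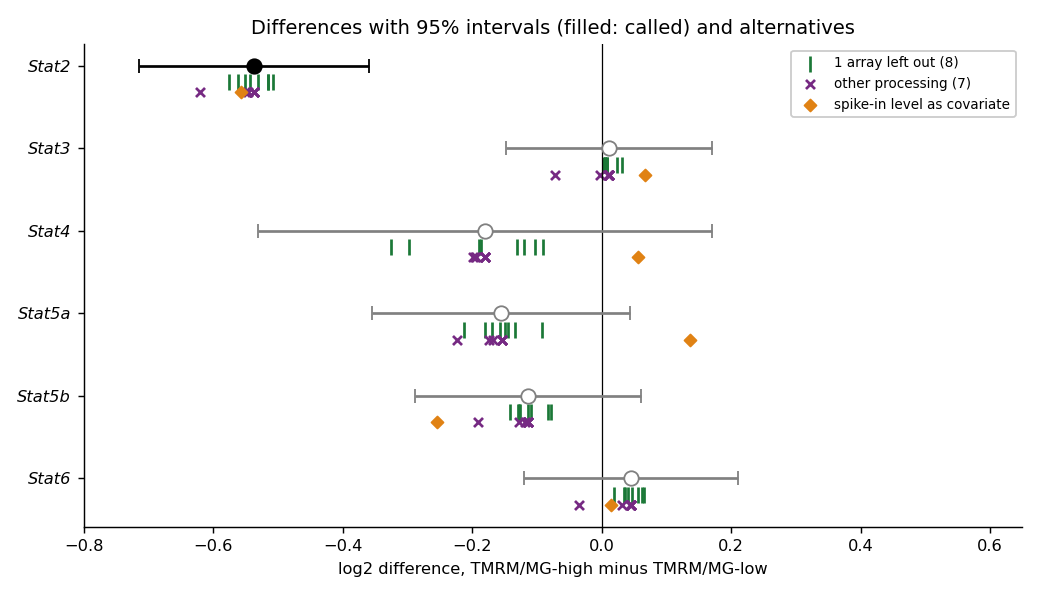
Log2 difference, TMRM/MG-high minus TMRM/MG-low, of each STAT gene with its 95% interval from limma; the filled point is called. Marks below give the 8 fits with 1 array left out, 7 other processing choices and the fit that adds spike-in level. All 17 Stat2 values lie between -0.62 and -0.51, and the intervals of the other 5 genes include 0.

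Whether the members changed unequally was tested within arrays, by subtracting one gene's log2 level from another's on the same array, which cancels any shift that both share. All 15 pairs were compared by a two-sided exact permutation test of the 4 high against the 4 low arrays, whose smallest possible p is 0.0286. Stat2 lost ground to Stat6 by 0.58, to Stat3 by 0.55, to Stat5b by 0.42 and to Stat5a by 0.38, as differences between the fractions in the within-array log2 difference. In these 4 pairs the groups did not overlap (exact p = 0.0286 each, adjusted p = 0.107 over the 15 pairs). Against Stat4 the loss was 0.36 and the groups overlapped (exact p = 0.143). In the 10 pairs without Stat2 no pair separated the fractions with all 8 arrays, and the changes were -0.23 (Stat4 minus Stat6) to 0.19 (Stat3 minus Stat4). This absence depended on single arrays. Without low replicate 3, Stat3 minus Stat5a (0.22), Stat5a minus Stat6 (-0.27) and Stat5b minus Stat6 (-0.20) also separated the fractions, and without high replicate 3 the last of these did (-0.18). The same 4 Stat2 pairs separated the fractions in all 8 omissions. This was fixed in advance, since leaving out an array cannot make separated groups overlap. The difference between Stat5a and Stat5b changed by -0.04 (exact p = 0.629). No pair passed after adjustment, which 15 pairs at this number of arrays can do only if many reach the smallest p together. The 5 pairs with Stat2 are too few for that, so a change in Stat2 alone could not have passed at any size. The 4 pairs that separated the fractions share the same Stat2 values and are not independent results.

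**Figure D3:**
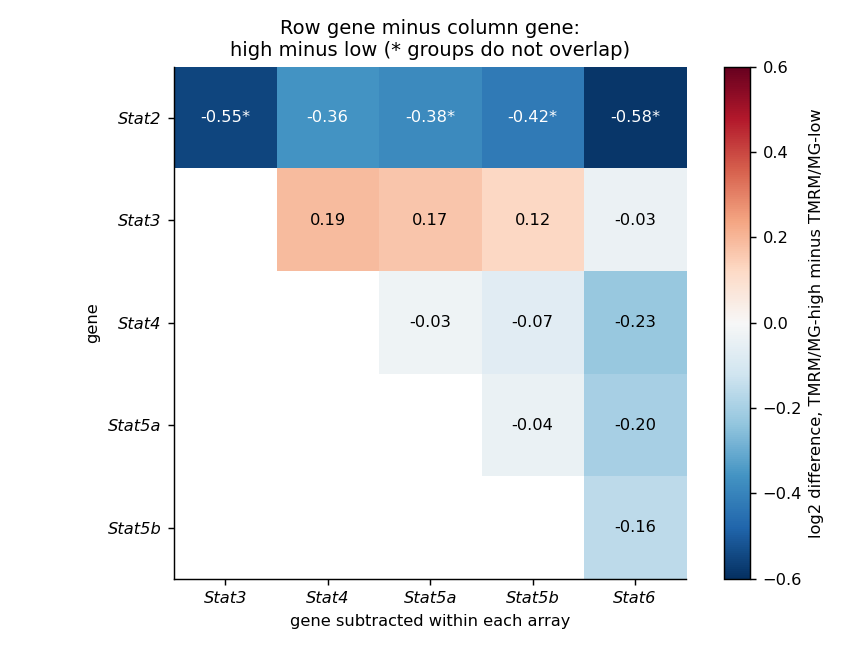
Change between fractions, TMRM/MG-high minus TMRM/MG-low, in the within-array log2 difference of 2 STAT genes (row gene minus column gene). An asterisk marks the 4 pairs whose high and low arrays do not overlap, all of them with Stat2 in the row; without low replicate 3, 3 pairs lacking Stat2 separated too.

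The probe sets whose 8-array profiles were most like each member were found among 17485 others with a gene symbol, as the smallest root mean square distance between profiles centred on their own means. For Stat2 these were Phactr2 at 0.061, Slc8b1, a mitochondrial sodium-calcium exchanger gene, at 0.069, and Mustn1 at 0.070 log2 units. Their differences between fractions were -0.45, -0.45 and -0.58. For Stat4 the nearest was Pitpnc1 at 0.075, followed by Zfp458 and Prkce, both at 0.10. For Stat5a they were Fthl17f (0.029), Galr1 (0.037) and Sfrp1 (0.044), and for Stat5b Rpl32l (0.035), Smarca4 and Wnt8a (both 0.036). For the nearly flat Stat3 and Stat6 they were other flat profiles, Rpl7a (0.022), Ppp1r12a (0.024) and Nlrp14 (0.028) for Stat3 and Clca4a (0.023), Emd (0.024) and Dnajc19 (0.027) for Stat6. With 8 arrays and so many candidates, close matches are easily had, and these are descriptions.

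The other genes of the pathway were taken as 10 lists by role, 150 genes measured in all. Of these, 9 rose and 9 fell, 6.00% each way, beside 5.28% higher and 2.96% lower in the whole table, and their median difference of 0.02 was close to the 0.01 of all probe sets. The counts moved with scaling, to 4 rises after centring the arrays on their medians and to 3 after a second quantile normalization. Only 4 of the 18 calls were kept on leaving out each array in turn: Tyk2, Csf3r, Il15 and Bst2. The calls of Cxcl10, Ebi3, Herc6, Nfil3, Pias1 and Ptpn2 were lost after the second quantile normalization. With the spike-in covariate none was called: Il18rap (0.05) and Nfil3 (-0.01) turned direction and Ebi3 was at 0.00, while Il2rb was at -0.47, Ccl22 at 0.22, Dhx58 at -0.185, Pias1 at 0.14, Pias3 at -0.13 and Herc6 at 0.11.

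Upstream of Stat2, Tyk2 fell. Tyk2, which docks on the type I interferon receptor and phosphorylates STAT2, had log2 levels of 11.08, 11.12, 11.00 and 11.05 in TMRM/MG-high against 11.58, 11.58, 11.39 and 11.47 in TMRM/MG-low replicates 1 to 4. All high arrays were below all low arrays. The difference was -0.44 (SE 0.080, limma adjusted p = 0.0117). It was the 1 call among 4 genes measured of the list of JAK kinases and Irf9. Jak1 differed by 0.08 and Jak2 by 0.20, and Irf9, the DNA-binding partner of STAT2, by -0.17 (SE 0.087), none of them called, although the Jak2 groups did not overlap. With the spike-in covariate the Tyk2 difference was -0.25 and not called. The part of the plasmacytoid dendritic, T, NK and neutrophil cell markers given beside Stat2 was not tested for Tyk2 either.

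Class II cytokine receptors, the family of the interferon and IL-10 receptors, had 0 of 11 called (median -0.08). Ifnar2, a chain of the type I interferon receptor, measured 11.83, 11.94, 11.92 and 12.02 in high and 11.71, 11.75, 11.75 and 11.65 in low replicates 1 to 4. These groups did not overlap, but the difference of 0.21 (SE 0.078) missed the threshold (limma adjusted p = 0.116). The other chain, Ifnar1, differed by 0.06. Il22ra2, a soluble IL-22 binding protein, differed by -0.36 and lay below the negative control median on all arrays, so its size is uncertain.

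Class I cytokine receptors, which signal through STAT3, STAT4, STAT5 and STAT6, had 2 falls and 0 rises among 28 (median 0.00). Csf3r, the G-CSF receptor, stood at 9.96, 10.05, 9.94 and 9.93 in TMRM/MG-high and 10.88, 10.75, 10.81 and 10.66 in TMRM/MG-low replicates 1 to 4, a difference of -0.81 (SE 0.080, limma adjusted p = 0.00065). Neutrophils also carry this receptor. The mean level of the 8 neutrophil markers measured, Csf3r among them, was 8.62 to 9.53 in high and 9.55 to 10.11 in low arrays (median difference -0.745), all 8 were above the negative control median on every array, and 1 of the 8, Csf3r, was called. Il2rb, the receptor chain shared by IL-2 and IL-15, ranged from 10.34 to 10.93 in high and from 11.01 to 12.004 in low arrays, a difference of -0.94 (SE 0.19, limma adjusted p = 0.0164). That call was lost without high replicate 3 (highest adjusted p = 0.0552). NK cells and some T cells use Il2rb, whose markers are given beside Stat4. The part of neutrophils, T cells and NK cells in these values was not tested. The GM-CSF receptor chains Csf2ra (-0.18) and Csf2rb (-0.02), the IL-6 receptor chains Il6ra (-0.25) and Il6st (0.04), and Il4ra (0.07) were not called. In 6 of the 28 genes the groups did not overlap, where 16.1% of all probe sets had no overlap. These were Csf3r and Il2rb, and, not called, Csf2ra, Il6ra, the IL-23 receptor gene Il23r (0.38) and the oncostatin M receptor gene Osmr (0.24). Osmr lay below the negative control median on all arrays, so the size of its difference is uncertain.

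Cytokine genes had 2 rises and 0 falls among 25 (median 0.04). Il15, a cytokine that dendritic cells present to NK and memory CD8 T cells, was at 9.37, 9.76, 9.33 and 9.50 in TMRM/MG-high against 8.84, 9.11, 8.80 and 8.69 in TMRM/MG-low replicates 1 to 4, with no overlap. The difference was 0.63 (SE 0.12, limma adjusted p = 0.0126). Ebi3, a subunit of IL-27, ranged from 8.88 to 9.29 in high and from 8.32 to 8.87 in low arrays (0.45, SE 0.13, limma adjusted p = 0.0489). For Ebi3, 6 of the 8 omissions ended the call.

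Inhibitors of the pathway went both ways, with 2 rises and 1 fall among 19 (median 0.035). Pias1, a SUMO ligase that restrains STATs, differed by 0.37 (SE 0.089, limma adjusted p = 0.0296) and the phosphatase gene Ptpn2 by 0.27 (adjusted p = 0.0486). Pias3, an inhibitor of STAT3, fell (-0.37, adjusted p = 0.0382). In each of these 3 genes the fractions did not overlap. The Pias1 and Pias3 calls were lost in 6 of 8 omissions and the Ptpn2 call in all 8 (in the order Pias1, Ptpn2, Pias3, highest adjusted p = 0.0805, 0.125 and 0.118). Of the SOCS family, feedback inhibitors of cytokine receptors, 0 were called, and the differences went both ways. Socs4 differed by 0.57 (limma adjusted p = 0.0567), Socs5 by 0.29 and Socs3 by 0.03. Socs1 differed by -0.29 and the related Cish by -0.41 (limma adjusted p = 0.061).

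Genes induced by type I interferon, the output of the STAT2 complex, went both ways. Of 31 measured, 3 rose and 1 fell, and their median difference was -0.03. Bst2, the antiviral protein tetherin, rose: it was at 11.78, 11.91, 11.71 and 11.92 in TMRM/MG-high and 10.97, 11.00, 11.16 and 11.02 in TMRM/MG-low replicates 1 to 4, a difference of 0.79 (SE 0.086, limma adjusted p = 0.00101). Bst2 also marks plasmacytoid dendritic cells, of whose 10 markers 8 rose, Bst2 among them (mean level 10.08 to 10.45 in high and 9.42 to 9.62 in low arrays, all 10 above the negative control median on every array); their part in the result was not tested. Cxcl10, a chemokine (0.32, adjusted p = 0.0411), and Herc6 (0.32, adjusted p = 0.0498) passed narrowly. Dhx58, a regulator of the viral RNA sensors, fell, with 10.57 to 10.82 in the high arrays against 11.03 to 11.33 in the low arrays (-0.45, SE 0.096, limma adjusted p = 0.02). The call was kept on 4 of 8 omissions. Isg15 differed by 0.01, Irf7 by -0.01 and Mx1 by -0.10. The response element core that the Stat2 window holds was present in 11 of the 27 promoter windows of this list (40.7%), against 3.44% of all windows.

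Targets assigned to the other STATs were mixed. Of 13 STAT3 targets 1 rose, Nfil3 (0.35, limma adjusted p = 0.0444), and 1 fell, Myc (-0.37, adjusted p = 0.0481), with a median of 0.11, and Socs3 and Bcl3, direct readouts of STAT3 in many cells, differed by 0.03 and 0.01. Of 9 STAT5 targets 1 fell, again Myc (median -0.08). Of 15 STAT6 targets 1 rose, Ccl22, a chemokine of activated dendritic cells, which was at 10.06, 10.37, 10.34 and 9.99 in TMRM/MG-high and 9.48, 9.54, 9.91 and 9.41 in TMRM/MG-low replicates 1 to 4 (0.60, SE 0.13, limma adjusted p = 0.0187), and the median was 0.08. Ccl17, a companion chemokine, differed by 0.14. The Nfil3, Myc and Ccl22 calls were each lost on leaving out at least 5 of the 8 arrays in turn.

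STAT4 targets had 3 falls and 0 rises among 10 (median -0.07). Tbx21, the transcription factor T-bet, was at 7.80, 7.84, 7.33 and 7.86 in TMRM/MG-high and 8.65, 9.03, 8.12 and 8.54 in TMRM/MG-low replicates 1 to 4, a difference of -0.88 (SE 0.18, limma adjusted p = 0.0157). Il18rap, an IL-18 receptor chain, fell by 0.41 on the log2 scale (adjusted p = 0.0483) and Gadd45g by 0.30 (adjusted p = 0.0323). The Il18rap groups overlapped. Il18rap and Gadd45g each kept the call in only 2 of 8 omissions (highest limma adjusted p = 0.139 and 0.105). T and NK cells express Tbx21, Il18rap and Gadd45g, and low replicate 3 was the lowest of the low arrays in Tbx21 and Il18rap, as it was in the T and NK cell markers and in Stat4. The same array was also the lowest of its group in Stat5a, Stat5b and Tyk2. The Tbx21 difference was -0.07 with the spike-in covariate, a fit that can hardly tell fraction from spike-in level. The share of T and NK cell RNA in these values was not tested.

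**Figure D4:**
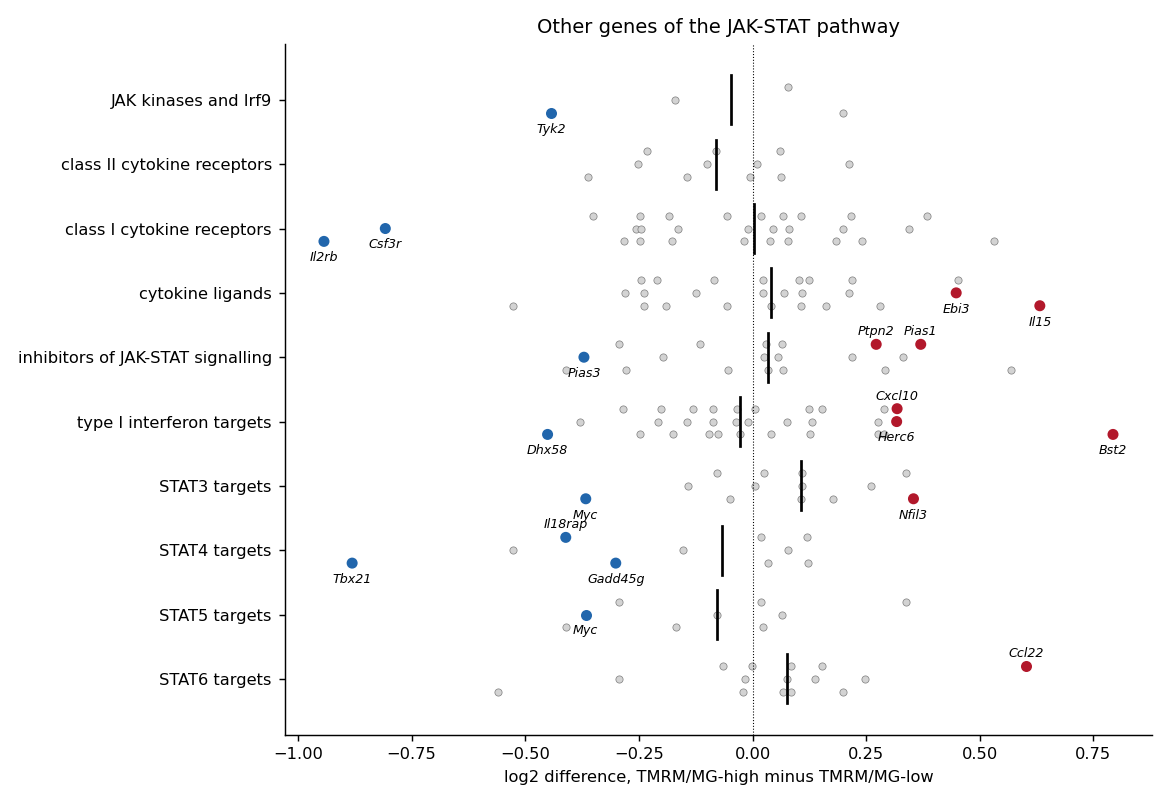
Log2 difference, TMRM/MG-high minus TMRM/MG-low, of each measured gene in 10 lists of the JAK-STAT pathway; vertical bars are list medians, red and blue points with names are genes called higher and lower (limma). Each list is centred near 0, and Tyk2 stands apart in the first row at -0.44.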

How the data were processed

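Gene expression was measured on 8 Affymetrix whole-transcript arrays, 4 per fraction. Per the submitters' processing notes, the authors made the deposited log2 values with RMA in Affymetrix Expression Console 1.1. RMA corrects background, quantile-normalizes and summarises per probe set, which takes out changes common to most transcripts. The array's genome build: not given in the sources used here. The 28846 rows included 6640 controls, which were not tested. Of the 22206 tested, 19572 had 1 gene symbol and 2634 none. Fractions were compared with limma 3.58.1 in R 4.3.3 (lmFit, eBayes, no block, two-sided, adjusted over all 22206). Exact permutation tests used scipy 1.17.1. The fit was first tested on simulated data. The number of arrays limits the precision.

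The members, lists and tests were chosen with earlier results of these data known. Named genes are the 6 members, up to 4 called genes per list, in order of p (or up to 2 genes from a list with no call) and the 3 most similar profiles per member. Jak1, Jak2, Irf9, Ifnar1, Csf2ra, Csf2rb, Il6ra, Il6st, Il23r, Osmr, Il4ra, Socs1, Socs3, Socs4, Socs5, Cish, Isg15, Irf7, Mx1, Bcl3, Ccl17 and Cd3e are named for their role and were chosen after values were seen. A gene with several probe sets entered a list by its brightest. Alternatives were the replicate block, a second quantile normalization, array medians centred, dim probe sets left out, array weights, a robust fit with an intensity trend, the spike-in level as a covariate, 1 probe set per gene, and leaving out each array. Figures were drawn with matplotlib 3.10.9.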

Additional observations from a re-analysis of the deposited data

Results flagged for a closer look

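In groups of 4 arrays, an array is given here when its gap to the nearest other array divided by the range of its group exceeds Dixon's 95% critical value. Of 52 groups examined, for the 6 STAT genes and the named pathway genes, 5 had such an array, where chance gives about 1 in 20. Stat3 stood at 11.86 in TMRM/MG-low replicate 2, against 11.77 to 11.781 in the other low arrays, a small step in a very even gene. Gadd45g was at 9.371 in TMRM/MG-high replicate 3 (others 9.494 to 9.498) and at 9.783 in TMRM/MG-low replicate 1 (others 9.757 to 9.761). Il18rap was at 8.323 in TMRM/MG-low replicate 3 (others 8.696 to 8.769). Tbx21 was at 7.326 in TMRM/MG-high replicate 3 (others 7.797 to 7.863), and its call was lost without that array (adjusted p = 0.05).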

How the results depend on the processing

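The Stat2 difference kept its direction in all 16 alternatives and its call in 15, between -0.62 (second quantile normalization) and -0.51. With the replicate number as a block it was -0.54 (adjusted p = 0.014). With the spike-in covariate it was -0.5563 and not called. Spike-in level separates the fractions, so that fit can hardly tell the 2 apart. No alternative called Stat3, Stat4, Stat5a, Stat5b or Stat6. Signs turned for Stat3 (-0.0024 with array medians centred, -0.0717 after quantile normalization) and Stat6 (-0.0353 after quantile normalization). With the spike-in covariate they turned for Stat4 (0.0558, 95% interval -0.86 to 0.972) and Stat5a (0.1362, 95% interval -0.334 to 0.606), both too wide to give a direction. On leaving out 1 array the differences ranged from -0.5754 to -0.5071 for Stat2, 0.002 to 0.0321 for Stat3, -0.3259 to -0.0898 for Stat4, -0.2126 to -0.0927 for Stat5a, -0.141 to -0.0777 for Stat5b and 0.0191 to 0.0654 for Stat6. Over the whole table limma called 1173 higher and 658 lower. The covariate gave 0 and 0, the trend with a robust fit 1950 higher, quantile normalization 852 and 858 (49.8% higher, against 64.1%), and omissions 183 to 1680 higher and 218 to 793 lower. A smaller group also gives less power. Of the pathway genes 9 rose and 9 fell. Rises were 4 with medians centred, 14 with the trend and robust fit, 3 after quantile normalization and 0 with the covariate, which also gave 0 falls. Omissions gave 2 to 12 rises and 2 to 12 falls. Pairs of members that separated the fractions numbered 4, and 4 to 7 on leaving out 1 array, with 7 without low replicate 3. Leaving out an array can add such pairs but cannot take any away. No label says that replicate numbers pair the arrays, so they were not taken as pairs. Same-numbered arrays of the fractions deviated together at r = 0.015 to 0.271, and differently numbered arrays at r = -0.294 to 0.168. The replicate block gave 1225 higher and 650 lower.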
